A study of Mus musculus with 4 samples.

Results

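Collagens and other genes of the fibroblast extracellular matrix were compared in mouse embryonic stem cells (ESCs) with and without Naa10, with each knockout library set separately against wild type (WT). Members were the rows of 4 expression tables named for a collagen chain, together with the rows of 22 named genes of matrix structure, processing and signalling. The choice was made by name, with earlier results of these data known, so shares of members set beside shares of all rows are descriptions only. It gave 46 of the 14099 named rows, 24 of collagen chains and 22 of the other genes. In 4 rows a member was joined with a neighbour: Col20a1 with Arfgap1, Col7a1 with Mir711, Loxl2 with Mir6950 and Pdgfra with Mir7025, and a joined level belongs to both genes.

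The series asks about Naa10, the catalytic subunit of an N-terminal acetyltransferase, in DNA methylation and imprinting. It holds 2 libraries labelled WT and 2 labelled Naa10-KO. All 4 came from hybrid ESCs, derived from the inner cell mass after C57BL/6 females carrying the Naa10 knockout were crossed with WT males of the JF1 strain. The WT cells were littermates of the knockout cells. Every culture grew in N2B27 with the Mek inhibitor PD325901, the Gsk3 inhibitor Chir99021 and LIF, for 5 passages on irradiated mouse embryonic fibroblast feeders and then 5 passages without them. The labels do not say whether the replicates were separate lines or cultures, which strain gave the feeders or which part of Naa10 was deleted.

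Collagens are made of chains that wind into a triple helix in the endoplasmic reticulum, where Serpinh1 (HSP47) attends the folding helix. Fibrillar collagens are trimmed after secretion, assemble into fibrils with small proteoglycans such as decorin and lumican, and are cross-linked by lysyl oxidases. Metalloproteinases cut the matrix, TIMPs restrain them, and type IV collagen forms the separate sheet-like network of basement membranes. Embryonic fibroblasts, the cells used as feeders, are a well known source of fibrillar matrix, while the early embryo makes mainly basement membrane.

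The promoters of 5 members are shown as examples of both kinds of difference. They were chosen with their levels known, among members whose window holds no exon. Postn had the lowest log2 difference of the tested members in Naa10-KO replicate 2. Thbs1, which had the largest in replicate 1, is not among them. Timp1 and Bgn were high in Naa10-KO replicate 1, and Postn, Thbs2 and Col3a1 were low in Naa10-KO replicate 2. Each sequence is the 250 bases before a RefSeq transcription start (GRCm38.p6, another build than the mm9 named for the expression values). Capitals mark matches, on either strand, to AP-1 (TGANTCA), the TATA box (TATAAA), the CCAAT box (CCAAT) or TEAD (GGAATG). Timp1 lies at chrX:20869916-20870165, Bgn at chrX:73483351-73483600, Postn at chr3:54360857-54361106 and Col3a1 at chr1:45311288-45311537, all on the plus strand, and Thbs2 lies at chr17:14694263-14694512 on the minus strand.
Timp1: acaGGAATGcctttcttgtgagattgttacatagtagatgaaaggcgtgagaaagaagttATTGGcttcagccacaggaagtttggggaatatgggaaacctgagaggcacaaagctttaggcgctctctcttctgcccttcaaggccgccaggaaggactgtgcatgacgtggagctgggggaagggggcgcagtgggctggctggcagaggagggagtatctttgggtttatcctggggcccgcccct
Bgn: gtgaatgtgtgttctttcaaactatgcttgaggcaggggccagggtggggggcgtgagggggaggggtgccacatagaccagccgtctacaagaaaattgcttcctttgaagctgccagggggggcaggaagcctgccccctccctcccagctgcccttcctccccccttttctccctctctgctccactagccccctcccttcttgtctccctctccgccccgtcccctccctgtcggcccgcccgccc
Postn: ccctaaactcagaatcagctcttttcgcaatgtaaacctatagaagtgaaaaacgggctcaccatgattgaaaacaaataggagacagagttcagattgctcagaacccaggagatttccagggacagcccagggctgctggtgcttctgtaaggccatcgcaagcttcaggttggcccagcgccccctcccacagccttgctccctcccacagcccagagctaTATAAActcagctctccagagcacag
Thbs2: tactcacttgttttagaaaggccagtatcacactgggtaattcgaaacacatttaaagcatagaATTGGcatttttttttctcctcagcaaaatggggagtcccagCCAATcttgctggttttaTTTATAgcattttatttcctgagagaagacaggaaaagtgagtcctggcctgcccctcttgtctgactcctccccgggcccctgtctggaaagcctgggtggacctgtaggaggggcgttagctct
Col3a1: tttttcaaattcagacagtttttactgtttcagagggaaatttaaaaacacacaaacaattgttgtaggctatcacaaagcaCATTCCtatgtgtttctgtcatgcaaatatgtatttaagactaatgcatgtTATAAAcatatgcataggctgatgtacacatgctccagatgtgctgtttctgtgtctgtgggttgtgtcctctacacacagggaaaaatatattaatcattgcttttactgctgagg

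Timp1 had a TEAD match and a CCAAT box, while Bgn had none of the 4 motifs in its window. The Postn window held a TATA box that began 26 bases before the start, and a further RefSeq start of this gene had no match. Thbs2 held 2 CCAAT boxes and a TATA box, and Col3a1 a TATA box and a TEAD match. RefSeq windows were found for 32 members. Of these, 13 (40.6%) held a CCAAT box against 33.8% of all 32851 windows, and 5 (15.6%) a TATA box against 12.4%. TEAD was matched in 5 members (15.6%) against 12.6% of all windows, and AP-1 in Col6a1 alone (3.12% against 6.75%). A member was counted if any of its windows matched, while the shares of all windows are per window. Members with several windows, such as Col18a1, Col6a2 and Postn, thus had more chances to match. These are matches of letters in this window only.

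Levels are in RPKM, read counts scaled to transcript length and library size, which hide the depth. The smallest steps between low values gave relative depths of 1, 1.02, 1.46 and 1.68 for WT replicates 1 and 2 and Naa10-KO replicates 1 and 2. The row that joins Naa10 with Renbp stood at 105 and 106 RPKM in WT, 28.9 RPKM in Naa10-KO replicate 1 and 34.4 RPKM in replicate 2 (limma log2 change -1.71, SE 0.11, adjusted p = 0.0342). All 10 pluripotency markers passed the filter used for testing, with a summed level of 4952 and 5036 RPKM in WT, 4199 RPKM in Naa10-KO replicate 1 and 5082 RPKM in replicate 2. The largest part came from a row that joins Dppa5a with Ooep, with 2476 and 2578 RPKM in WT, 1698 RPKM in replicate 1 and 2018 RPKM in replicate 2. The median absolute log2 difference over all tested rows was 0.05 between the WT libraries and 0.25 between the knockout libraries. Over the members it was 0.10 and 1.03. The knockout libraries thus differed from each other more in these matrix genes, chosen with earlier results known, than in genes at large. In bulk RNA, fewer cells of a type and less RNA per cell cannot be told apart.

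Most tested matrix genes were above WT in Naa10-KO replicate 1, with a minority far above it, and most were below WT in Naa10-KO replicate 2. Together the 46 rows summed to 772 and 768 RPKM in WT, to 1618 RPKM in Naa10-KO replicate 1 and to 764 RPKM in replicate 2. A total of 36 members passed the filter of 1 RPKM in at least 2 libraries, and the other 10 are given as values only. Of the 36, 13 (36.1%) lay above the WT mean by at least 1 on the log2(RPKM + 1) scale in replicate 1, where 3.4% of all 11912 tested rows did. None lay below it by as much, where 3.06% of all rows did. In replicate 2, 0 members lay higher by as much (0.999% of all rows) and 5 lay lower (13.9% of members, 2.24% of all rows). That count of 5 was 3 without WT replicate 2. The median member differed from WT by 0.71 in replicate 1 and by -0.30 in replicate 2, and the median over all tested rows was -0.08 and -0.02. Both comparisons share the WT libraries and rest on 1 knockout library each, so neither has a test.

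**Figure D1:**
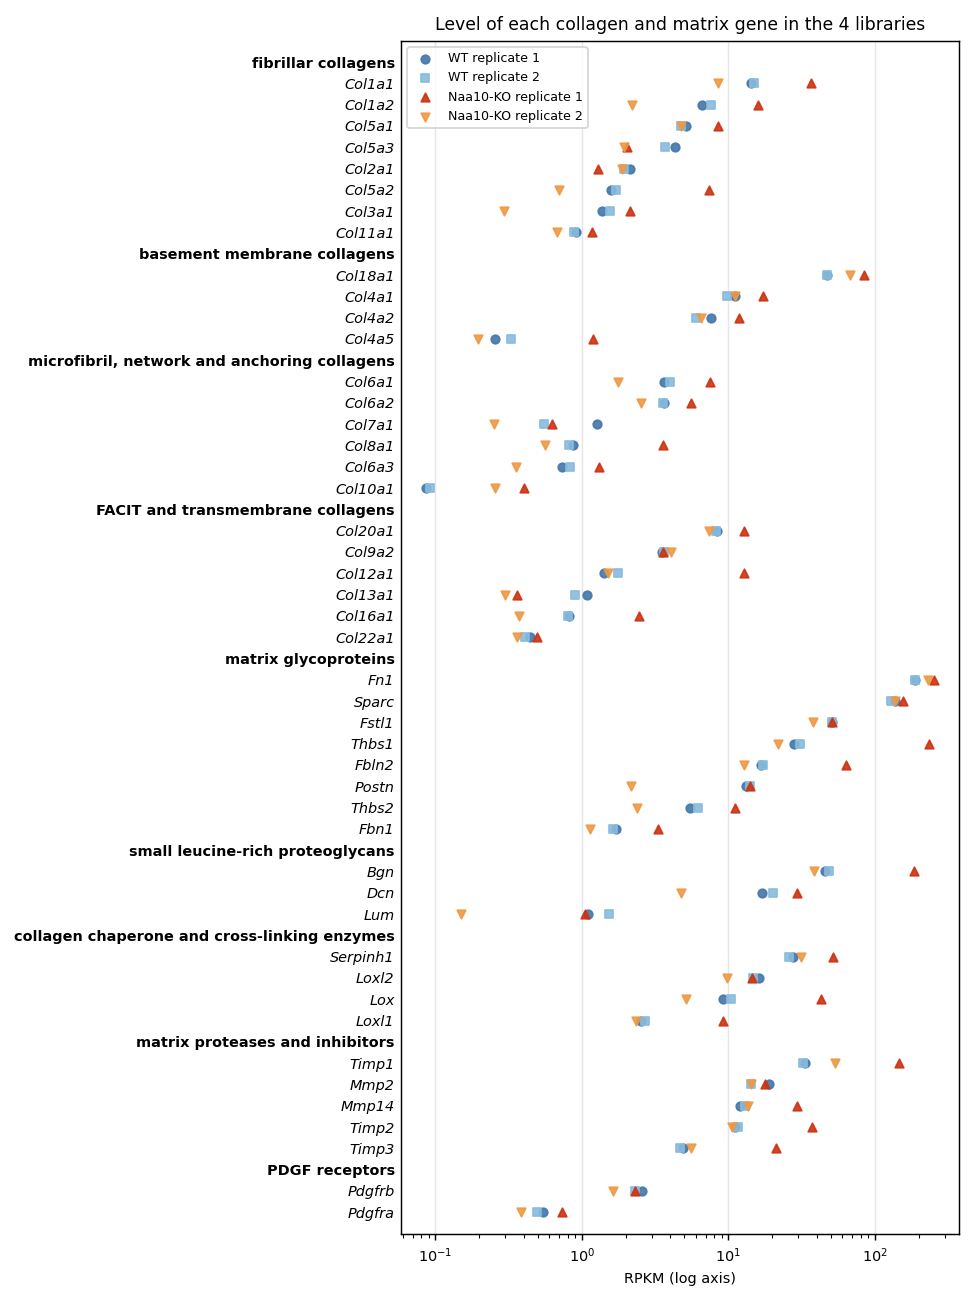
Level of each of the 46 members in RPKM (log axis), by role, with circles and squares for the WT libraries and triangles up and down for Naa10-KO replicates 1 and 2; Col20a1, Col7a1, Loxl2 and Pdgfra are joined rows. Most WT pairs lie close together, Col7a1 (1.28 and 0.556 RPKM) being an exception; Thbs1 is at 27.9 and 30.8 RPKM in WT against 234 RPKM in Naa10-KO replicate 1, and Postn is at 2.16 RPKM in replicate 2 against 13.1 and 14.1 RPKM in WT.

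The usual order was replicate 1 above WT and replicate 2 below it. Replicate 1 exceeded both WT libraries in 28 of the 36 tested members (38.3% of all rows) and below both in 5 (54.6% of all rows). Replicate 2 lay above both in 7 (41.8% of all rows) and below both in 25 (48.3% of all rows). In 18 members, 50.0%, replicate 1 was above and replicate 2 below both WT libraries, which 10.5% of all rows did, and 0 showed the opposite order (14.7% of all rows). Replicate 1 exceeded replicate 2 in 34 of the 36 (45.3% of all rows), by at least 1 on the log2 scale in 19 of them (2.94% of all rows). Col2a1 and Col9a2 were the exceptions.

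**Figure D2:**
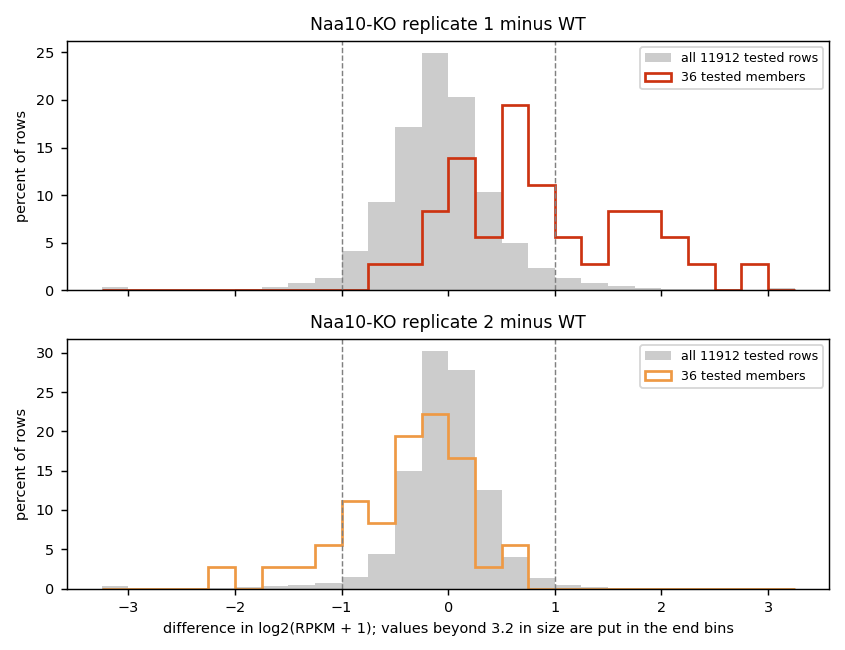
Share of rows (percent) by the difference in log2(RPKM + 1) from the WT mean, for Naa10-KO replicate 1 (top) and replicate 2 (bottom). All 11912 tested rows are in grey and the 36 tested members are a coloured line. Dashed lines mark a difference of 1, and the end bins also hold all values beyond the end bins. The members sit to the right of the grey bulk in replicate 1 (median 0.71) and to its left in replicate 2 (median -0.30).

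Among the fibrillar collagens, the chains of the main tissue fibrils were high in replicate 1 and low in replicate 2. Col1a1, the major chain of type I collagen, had 14.3 and 14.9 RPKM in WT, 36.9 RPKM in Naa10-KO replicate 1 and 8.47 RPKM in replicate 2. These are 2.53 and 0.580 times the WT mean. Col1a2, its partner chain, had 6.58 and 7.60 RPKM in WT, 15.9 RPKM in replicate 1 and 2.18 RPKM in replicate 2, or 2.24 and 0.308 times WT. Both type I genes thus lay on opposite sides of WT in the 2 knockout libraries, and the WT levels were much closer to each other than to either. Col3a1, the chain of type III collagen in elastic tissues, had 1.36 and 1.55 RPKM in WT, 2.12 RPKM in replicate 1 and 0.295 RPKM in replicate 2. As a ratio, its shortfall in replicate 2 (0.202 times WT) was larger than that of type I collagen, and its excess in replicate 1 (1.45 times) smaller. That shortfall rests on low values. On the log2(RPKM + 1) scale it was -0.92, between Col1a1 (-0.72) and Col1a2 (-1.34).

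The type V chains, which start fibrils and set their width, parted from each other. Col5a2 had 1.59 and 1.71 RPKM in WT, 7.40 RPKM in Naa10-KO replicate 1 and 0.693 RPKM in replicate 2. Col5a1 had 5.10 and 4.75 RPKM in WT, 8.52 RPKM in replicate 1 and 4.75 RPKM in replicate 2, so it was near WT in the library where Col5a2 was at 0.420 times WT. Col5a3 was low in both knockout libraries, with 4.29 and 3.72 RPKM in WT, 2.03 RPKM in replicate 1 and 1.93 RPKM in replicate 2. Col2a1, the collagen of cartilage, had 2.13 and 1.95 RPKM in WT, 1.28 RPKM in replicate 1 and 1.88 RPKM in replicate 2. Col5a3 and Col2a1 were the tested fibrillar chains that lay below both WT libraries in replicate 1. All 7 tested fibrillar chains lay below both WT libraries in replicate 2, as 48.3% of all rows did. For Col5a1 and Col2a1 the margin was smaller than the gap between the WT libraries.

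None of the 3 tested basement membrane collagens lay below both WT libraries in replicate 2, where 48.3% of all rows did. The remaining row, Col4a5, was below the filter and did lie below both there, at 0.194 RPKM against 0.255 and 0.329 RPKM in WT. Col18a1, whose C-terminal fragment is endostatin, was the most abundant collagen row in every library. It had 46.9 RPKM in each WT library, 84.1 RPKM in Naa10-KO replicate 1 and 68.0 RPKM in replicate 2, so both knockout libraries lay above WT. Col4a1 had 11.1 and 9.77 RPKM in WT, 17.2 RPKM in replicate 1 and 11.0 RPKM in replicate 2, and Col4a2, its partner in the main type IV helix, had 7.61 and 6.00, 11.8 and 6.56 RPKM. Both type IV chains were above WT in replicate 1 alone and between the WT libraries in replicate 2. They lie head to head on chromosome 8 with overlapping exons in the annotation, and the labels do not say whether counting separated the strands.

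Of the microfibril and network collagens, Col6a1 and Col6a2 passed the filter. Col6a1, a chain of the beaded filaments around cells, had 3.65 and 4.0 RPKM in WT, 7.48 RPKM in Naa10-KO replicate 1 and 1.78 RPKM in replicate 2. Col6a2 had 3.61 and 3.56 RPKM in WT, 5.53 RPKM in replicate 1 and 2.54 RPKM in replicate 2. Both chains, and the low Col6a3 (0.732 and 0.834, 1.31 and 0.357 RPKM in the same order), were high in replicate 1 and low in replicate 2.

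Col12a1, which decorates the surface of type I fibrils, had the largest relative excess of any collagen among the tested rows. It had 1.42 and 1.76 RPKM in WT, 12.7 RPKM in Naa10-KO replicate 1 and 1.51 RPKM in replicate 2, or 7.99 and 0.949 times WT. Col12a1 was thus far above WT in 1 knockout library and between the WT values in the other. Col9a2, a fibril-associated collagen of cartilage, had 3.50 and 3.62 RPKM in WT, 3.60 RPKM in replicate 1 and 4.08 RPKM in replicate 2. The row that joins Col20a1 with Arfgap1, a gene of Golgi traffic, had 8.33 and 8.19 RPKM in WT, 12.9 RPKM in replicate 1 and 7.41 RPKM in replicate 2, and the share of each gene is not known.

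Chains that assemble together did not keep one ratio across the libraries, apart from type IV and Col6a1 with Col6a3. The ratio of Col4a1 to Col4a2 was 1.46 and 1.63 in WT and 1.45 and 1.68 in Naa10-KO replicates 1 and 2, a span of 1.16 times between lowest and highest. The ratio of Col1a1 to Col1a2 was 2.17 and 1.96 in WT, 2.33 in replicate 1 and 3.88 in replicate 2. The type I ratio was thus nearer to WT in the library where both chains were high than in the library where both were low. Col6a1 to Col6a2 went from 1.01 and 1.12 in WT to 1.35 in replicate 1 and 0.699 in replicate 2, while Col6a1 to Col6a3 spanned 1.19 times. Col5a1 to Col5a2 spanned most, with 3.2 and 2.78 in WT, 1.15 in replicate 1 and 6.85 in replicate 2. Col5a2 and Col3a1 are both on chromosome 1, and Col5a2 over Col3a1 was 1.17 and 1.10 in WT, 3.49 in replicate 1 and 2.35 in replicate 2. These ratios are values of single libraries without a test.

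**Figure D3:**
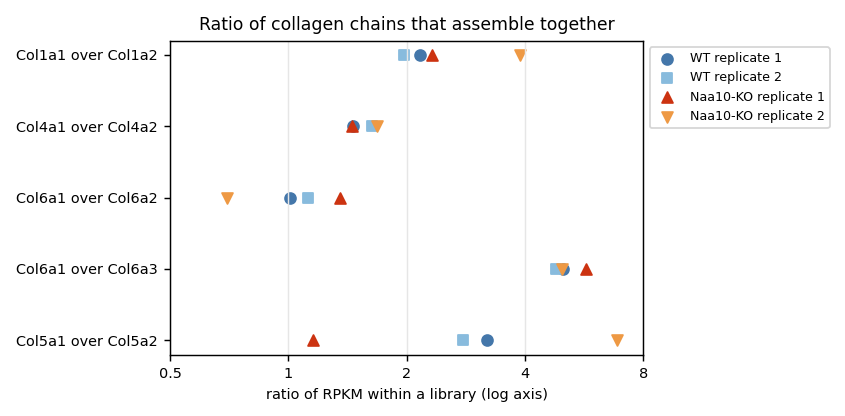
Ratio of RPKM between chains of one collagen type within each library (log axis), with circles and squares for WT and triangles up and down for Naa10-KO replicates 1 and 2. Type IV and Col6a1 over Col6a3 stay together, while Col5a1 over Col5a2 runs from 1.15 in Naa10-KO replicate 1 to 6.85 in replicate 2.

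The matrix glycoproteins ranged from abundant genes with small relative differences to genes far above or below WT. Fn1, fibronectin, to which cells attach through integrins, had 188 and 189 RPKM in WT, 254 RPKM in Naa10-KO replicate 1 and 231 RPKM in replicate 2. Sparc, a collagen-binding protein of basement membranes, had 137 and 129 RPKM in WT, 155 RPKM in replicate 1 and 137 RPKM in replicate 2. Fn1 lay above both WT libraries in each knockout library, at 1.34 and 1.22 times WT, while Sparc in replicate 2 was at 1.03 times WT and within the WT pair. Fstl1, a secreted glycoprotein of mesenchymal cells, had 50.9 and 51.1 RPKM in WT, 51.0 RPKM in replicate 1 and 37.6 RPKM in replicate 2, or 0.737 times WT.

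Thbs1, a thrombospondin that activates latent TGF-beta, had the largest log2 difference of the tested members in replicate 1. It had 27.9 and 30.8 RPKM in WT, 234 RPKM in Naa10-KO replicate 1 and 21.7 RPKM in replicate 2, or 7.98 and 0.741 times WT. Its relative Thbs2 had 5.43 and 6.18 RPKM in WT, 11.1 RPKM in replicate 1 and 2.37 RPKM in replicate 2, or 1.92 and 0.407 times WT. Both lay apart from WT in each knockout library, Thbs1 mainly by its excess and Thbs2 in either direction. Fbln2, an elastic fibre and basement membrane protein, had 16.7 and 17.3 RPKM in WT, 64.0 RPKM in replicate 1 and 12.7 RPKM in replicate 2.

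Postn, periostin of fibroblasts and periosteum, had the lowest log2 difference of the tested members in replicate 2. It had 13.1 and 14.1 RPKM in WT, 14.2 RPKM in Naa10-KO replicate 1 and 2.16 RPKM in replicate 2, or 1.04 and 0.158 times WT. Postn was therefore unlike Thbs1 and Fbln2: it was at the WT level in the library where they were high. Fbn1, the fibrillin of microfibrils, had 1.70 and 1.62 RPKM in WT, 3.31 RPKM in replicate 1 and 1.13 RPKM in replicate 2.

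The small leucine-rich proteoglycans, which bind collagen fibrils, showed both forms of difference. Bgn, biglycan, had 45.6 and 49.0 RPKM in WT, 185 RPKM in Naa10-KO replicate 1 and 38.7 RPKM in replicate 2, or 3.92 and 0.818 times WT. Dcn, decorin, had 17.0 and 20.1 RPKM in WT, 29.6 RPKM in replicate 1 and 4.78 RPKM in replicate 2, or 1.60 and 0.258 times WT. Lum, lumican, had 1.11 and 1.54 RPKM in WT, 1.06 RPKM in replicate 1 and 0.149 RPKM in replicate 2. Bgn stood out by its high level in replicate 1, while Dcn and Lum stood out by their low level in replicate 2, at 0.258 and 0.113 times WT.

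The enzymes that cross-link collagen also differed among themselves. Lox, lysyl oxidase, had 9.16 and 10.4 RPKM in WT, 43.2 RPKM in Naa10-KO replicate 1 and 5.13 RPKM in replicate 2. Loxl1, which acts on elastin, had 2.52 and 2.72 RPKM in WT, 9.27 RPKM in replicate 1 and 2.36 RPKM in replicate 2. Lox and Loxl1 were thus 4.42 and 3.54 times WT in replicate 1. The joined row of Loxl2, an enzyme active on type IV collagen, was not higher there, with 16.2 and 14.7 RPKM in WT, 14.6 RPKM in replicate 1 and 9.79 RPKM in replicate 2. Serpinh1, the collagen chaperone, had 27.5 and 25.8 RPKM in WT, 51.7 RPKM in replicate 1 and 31.5 RPKM in replicate 2, and both knockout libraries lay above WT.

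Inhibitors of metalloproteinases were the role with the highest median in replicate 1. With the proteases they had a median log2 difference of 1.62 over 5 tested rows, against 0.12 in replicate 2. Timp1 had 33.5 and 32.3 RPKM in WT, 147 RPKM in Naa10-KO replicate 1 and 53.7 RPKM in replicate 2. Timp2 had 11.0 and 11.7 RPKM in WT, 37.0 RPKM in replicate 1 and 10.6 RPKM in replicate 2. Timp3, which stays bound to the matrix, had 4.94 and 4.71 RPKM in WT, 21.3 RPKM in replicate 1 and 5.56 RPKM in replicate 2, and its annotated exons overlap Syn3 on the other strand. All 3 inhibitors were high in replicate 1, between 3.26 and 4.47 times WT. Timp1 and Timp3 were above both WT libraries in each knockout library. Of the proteases, Mmp14, the membrane-bound activator of Mmp2, had 11.9 and 12.9 RPKM in WT, 29.2 RPKM in replicate 1 and 13.6 RPKM in replicate 2. Mmp2, a gelatinase, had 19.1 and 14.3 RPKM in WT, 17.7 RPKM in replicate 1 and 14.3 RPKM in replicate 2, a difference smaller than the gap between the WT libraries.

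PDGF receptors, which mark fibroblasts and, for Pdgfra, also primitive endoderm, were low in all libraries and Pdgfrb was not above WT in replicate 1. Pdgfrb had 2.57 and 2.30 RPKM in WT, 2.29 RPKM in Naa10-KO replicate 1 and 1.62 RPKM in replicate 2. The joined Pdgfra row had 0.539 and 0.494 RPKM in WT, 0.732 RPKM in replicate 1 and 0.386 RPKM in replicate 2, and it did not pass the filter.

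**Figure D4:**
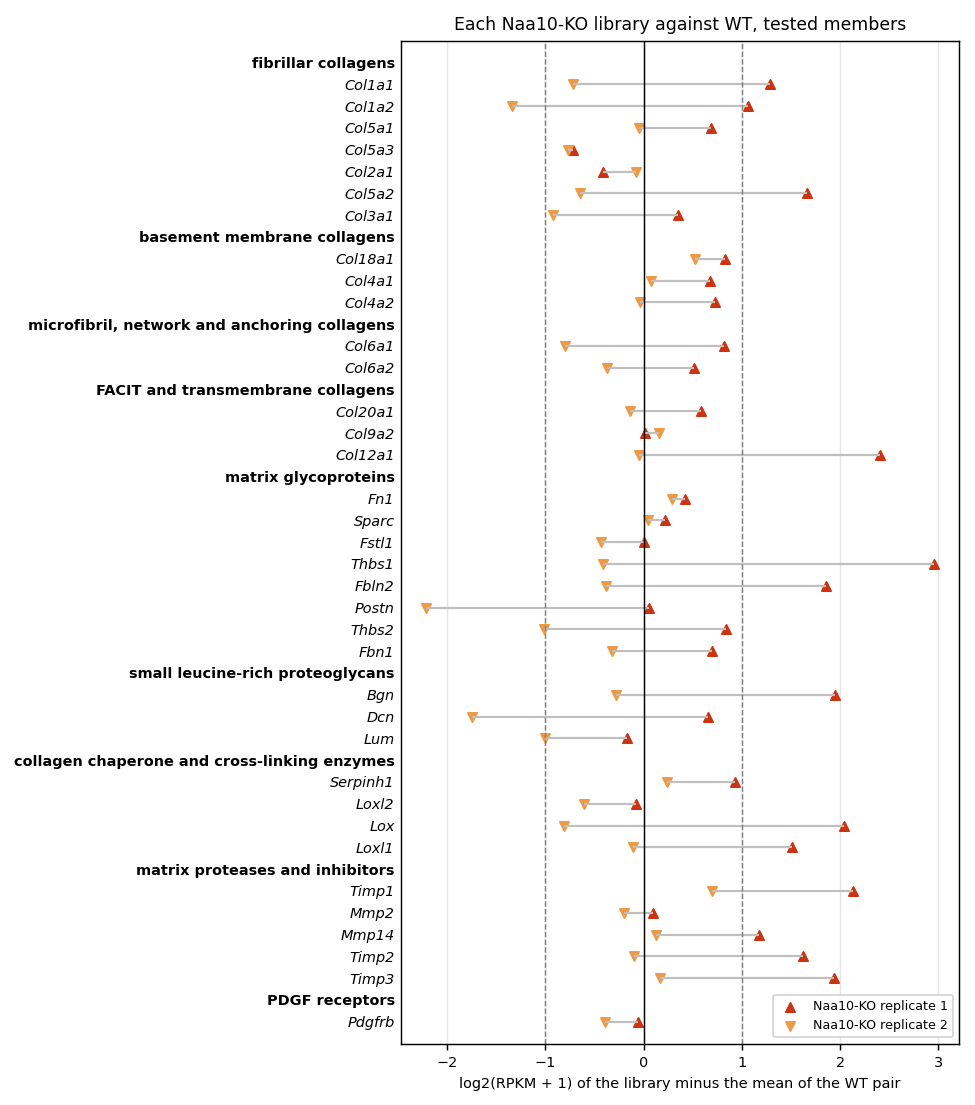
Difference of each Naa10-KO library from the WT mean in log2(RPKM + 1), for the 36 tested members by role, with a triangle up for replicate 1, a triangle down for replicate 2 and a grey line between them; dashed lines mark a difference of 1. Thbs1 is at 2.96 and -0.42, Postn at 0.05 and -2.21, and Col5a3 at -0.72 and -0.77.

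The other members below the filter were all collagen chains. Col8a1, of vascular and corneal networks, had 0.865 and 0.812 RPKM in WT, 3.60 RPKM in Naa10-KO replicate 1 and 0.558 RPKM in replicate 2. Col16a1 had 0.813 and 0.804 RPKM in WT, 2.45 RPKM in replicate 1 and 0.369 RPKM in replicate 2. Col4a5, of kidney basement membrane, had 0.255 and 0.329 RPKM in WT, 1.19 RPKM in replicate 1 and 0.194 RPKM in replicate 2. These 3 low rows were ordered like Lox and Bgn. Col13a1, a transmembrane collagen, was low in both knockout libraries, with 1.08 and 0.893 RPKM in WT, 0.363 RPKM in replicate 1 and 0.298 RPKM in replicate 2. Col11a1, Col22a1, Col10a1 and the joined Col7a1 row lay between 0.0869 and 1.28 RPKM in every library.

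With both knockout libraries in a single group, 0 of the 36 tested members passed the limma test at an adjusted p under 0.05 in either direction (0.218% of all rows passed as higher and 0.546% as lower). At an unadjusted p under 0.05 there were 3 members (8.33%), a smaller share than the 22.1% of all rows. These were Col5a3 with 4.0 ± 0.405 RPKM in WT and 1.98 ± 0.0660 RPKM in the knockout libraries (SD, n = 2 in each group; limma log2 difference -0.75, SE 0.12, adjusted p = 0.113), Col18a1 and Fn1. Col18a1 had 76.1 ± 11.4 RPKM in Naa10-KO (n = 2; limma log2 difference 0.68, SE 0.13, adjusted p = 0.122), and Fn1 242 ± 16.1 RPKM (n = 2; 0.36, SE 0.08, adjusted p = 0.136). Thbs1, at 29.4 ± 2.04 RPKM in WT, averaged 128 ± 150 RPKM in Naa10-KO (n = 2; limma adjusted p = 0.558), an SD larger than its mean. Both knockout libraries lay above both WT libraries in 6 members (16.7%, against 24.4% of all rows): Col18a1, Fn1, Serpinh1, Timp1, Mmp14 and Timp3. They lay below both in 5 (13.9%, against 34.9% of all rows): Col5a3, Col2a1, Lum, Loxl2 and Pdgfrb. With each library centred on its median these counts were 9 above and 1 below. Without Naa10-KO replicate 2, limma called 27 members as higher and 2 as lower, and without replicate 1 it called 4 as higher and 19 as lower. In those fits the lone knockout library was assumed to vary like the WT pair, and 59.4% and 41.5% of all rows passed.

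Most genes of collagen synthesis outside the members lay close to WT. Of 22 rows for collagen hydroxylation, folding and processing, 18 were tested, and 2 were higher and 1 lower than WT by at least 1 in Naa10-KO replicate 1. In replicate 2, 0 were higher and 1 was lower. As background for the lists here, 3.4% of all tested rows were higher and 3.06% lower by as much in replicate 1. In replicate 2 these shares were 0.999% and 2.24%. The median differences of the 18 collagen synthesis rows were 0.08 and -0.02, beside -0.08 and -0.02 over all rows. The limma test passed 0 as higher and 1 as lower, Kdelr3, with 34.2 and 33.7 RPKM in WT, which each knockout table lists at 0. An exact 0 can be a failed estimate in these tables. Of 19 matrix receptor rows, 12 were tested, 3 were higher in replicate 1 (Cd44, Ddr1 and Itgb1) and 0 in replicate 2, and 0 passed limma. Cd44, the hyaluronan receptor, had 4.20 and 4.91 RPKM in WT, 46.2 RPKM in replicate 1 and 4.05 RPKM in replicate 2. Itgb1, the common chain of collagen and fibronectin receptors, had 44.3 and 46.9 RPKM in WT, 114 RPKM in replicate 1 and 51.8 RPKM in replicate 2. Of 18 tested rows for TGF-beta and PDGF signalling, 7 were higher in replicate 1 and 0 in replicate 2, where 1 was lower, and 0 passed limma. Among the 7, Tgfbr2 passed the filter only through the knockout libraries. It had 0.876 and 0.947 RPKM in WT, 4.37 RPKM in replicate 1 and 1.16 RPKM in replicate 2. Ctgf, the gene that was lower in replicate 2, had 76.5 and 73.7 RPKM in WT, 109 RPKM in replicate 1 and 31.5 RPKM in replicate 2.

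Markers of fibroblasts outside the members were mostly high in replicate 1, with a summed level near WT in replicate 2. Of 18 fibroblast markers 14 had a row, none at 0, and they summed to 208 and 219 RPKM in WT, 610 RPKM in Naa10-KO replicate 1 and 224 RPKM in replicate 2. Most of this sum came from Vim, with 118 and 128 RPKM in WT, 386 RPKM in replicate 1 and 137 RPKM in replicate 2. Of 11 tested, 7 were higher than WT by at least 1 in replicate 1 (3.4% of all rows). By as much in replicate 2, 0 were higher (0.999% of all rows) and 1 was lower (2.24% of all rows). The lower one was Mgp, matrix Gla protein, with 6.48 and 7.37 RPKM in WT, 5.37 RPKM in replicate 1 and 2.91 RPKM in replicate 2, so it lay below WT in both. Prrx1, a mesenchymal transcription factor, had 1.72 and 1.98 RPKM in WT, 9.86 RPKM in replicate 1 and 1.53 RPKM in replicate 2. Twist2 had 4.59 and 5.24 RPKM in WT, 16.7 RPKM in replicate 1 and 2.11 RPKM in replicate 2, while Thy1 had 25.2 and 25.8 RPKM in WT, 58.7 RPKM in replicate 1 and 22.1 RPKM in replicate 2. Twist2 was at 0.429 times WT in replicate 2, a log2 difference of -0.92 that did not reach 1 in size, whereas Thy1 and Prrx1 were at 0.865 and 0.826 times WT. Mgp, Twist2, Thy1 and Prrx1 thus lay below both WT libraries in replicate 2, but the list as a whole did not. Of the 11 tested markers, 6 lay above both WT libraries there (41.8% of all rows) and 5 below both (48.3% of all rows). The median log2 difference of the tested fibroblast markers in replicate 2 was 0.14. Contractile genes summed to 192 and 197 RPKM in WT, 820 RPKM in replicate 1 and 171 RPKM in replicate 2. Of 9 tested, 8 were higher by at least 1 in replicate 1 (3.4% of all rows). The part of the contractile genes in the matrix values was not tested.

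Summed levels of the other marker lists lay nearer to WT, although single markers in them did not. The 16 rows of primitive and parietal endoderm, whose basement membrane includes type IV collagen and Sparc, summed to 310 and 299 RPKM in WT, 377 RPKM in replicate 1 and 332 RPKM in replicate 2. Of its transcription factors, Gata6 and Sox17 were below the filter, while Gata4 and Sox7 passed it. Sox7 had 1.26 and 1.14 RPKM in WT, 1.73 RPKM in replicate 1 and 3.83 RPKM in replicate 2, the only row of 11 tested that was higher by at least 1 in replicate 2. Thbd, thrombomodulin, was the only one in replicate 1, with 1.37 and 1.46 RPKM in WT, 17.1 RPKM in replicate 1 and 1.08 RPKM in replicate 2. Over all tested rows, 3.4% were higher by as much in replicate 1 and 0.999% in replicate 2. Gata6 had 0.634 and 0.410 RPKM in WT, 0.817 RPKM in replicate 1 and 0.650 RPKM in replicate 2, and Sox17 had 0.820, 0.617, 0.665 and 0.619 RPKM in the same order. YAP-TEAD genes summed to 478 and 461 RPKM in WT, 538 RPKM in replicate 1 and 403 RPKM in replicate 2. Of the 11 tested, 2 were higher by at least 1 in replicate 1, Ankrd1 and Axl, at 11.1 and 5.41 times WT. Ankrd1 was low in WT, at 1.04 and 1.13 RPKM. In replicate 1, 7 of the 11 lay above both WT libraries and 2, among them Amotl2 at 0.634 times WT, below both. Ctgf was low in replicate 2 as above. The 6 rows of endothelial and blood cell markers summed to 1390 and 1438 RPKM in WT, 1384 RPKM in replicate 1 and 1401 RPKM in replicate 2, most of it from a row that joins Cd68 with Eif4a1, a translation factor. Of 5 tested, only Cd34 was higher by at least 1 in replicate 1, at 3.27 times WT. It had 0.974 and 0.911 RPKM in WT and passed the filter only through the knockout libraries. In replicate 1, 3 of the 5 lay above both WT libraries and 2, among them Pecam1 at 0.638 times WT, below both. A further 4 genes of this list had no row. Pluripotency markers had a median log2 difference of -0.38 in replicate 1 and 0.25 in replicate 2, opposite in sign to the median matrix gene in both. Of the 10, 3 lay above both WT libraries in replicate 1 (38.3% of all rows) and 7 below both (54.6%). In replicate 2, 8 lay above both (41.8% of all rows) and 1 below both (48.3%).

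**Figure D5:**
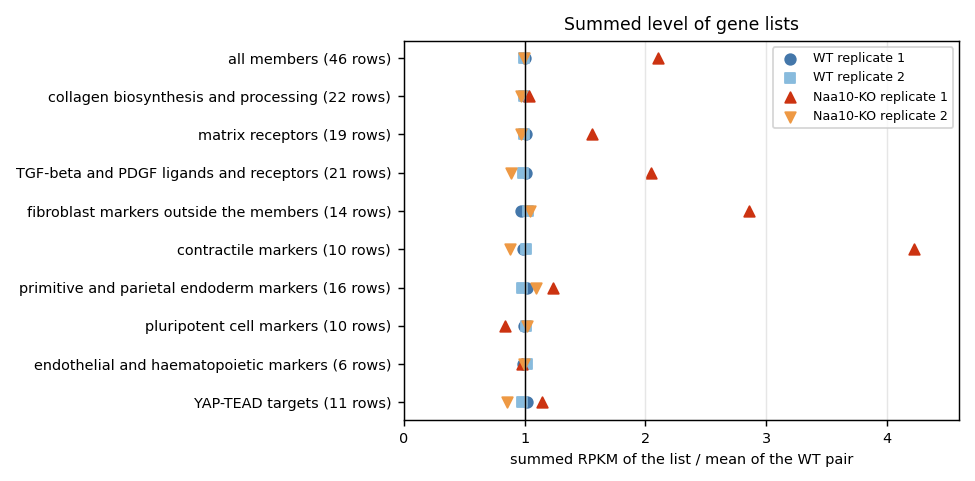
Summed RPKM of each gene list divided by the mean of the WT pair, with circles and squares for WT and triangles up and down for Naa10-KO replicates 1 and 2, and a line at 1. In Naa10-KO replicate 1 the members stand at 2.10, fibroblast markers at 2.85 and contractile markers at 4.22, while in replicate 2 they stand at 0.992, 1.05 and 0.882. Vim makes up most of the fibroblast marker sum in every library. Of the member sum of 764 RPKM in replicate 2, Fn1 gives 231 RPKM and Sparc 137 RPKM. There, 25 of the 36 tested members lie below both WT libraries (48.3% of all rows).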

How the data were processed

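Polyadenylated RNA of 4 ESC libraries was sequenced by the authors, and each library has a deposited table of RPKM, per the file headers. The submitters' processing notes name mm9, Cufflinks and bedtools. Aligner, annotation and use of strand: not given in the sources used here. Rows were kept as deposited. No member row was listed at 0.

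The groups were compared by limma (version 3.58.1, R 4.3.3; two-sided, trended variance) on the log2(RPKM + 1) scale. This used the 11912 rows that reached 1 RPKM in 2 libraries or more, Benjamini-Hochberg adjustment over all of them and a threshold of 0.05. The residual degrees of freedom were 2. P-values measure only the spread between these libraries, which may be technical. A log2 difference on this scale understates the change of low genes. Single knockout libraries were set against the WT mean without a test, and a log2 difference of 1 counted as large. Relative depth came from the smallest value above 0 of rows of one length between 55 and 75 nt. It was the most common ratio in 9, 10 and 8 of 14 length classes for WT replicate 2 and Naa10-KO replicates 1 and 2. Python 3.11.15 and pandas 2.3.3 were used for the rest.

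The members and lists were chosen with earlier results of these data known. The rule for full values took members with a mean of 10 RPKM or more, the 10 with the largest log2 difference in each knockout library and any past the limma threshold, 28 in all. Values of other members were added after they were seen, to fill out each role. The other lists were fibroblast, contractile, endoderm, pluripotency, endothelial and blood, and YAP-TEAD markers, and pathway genes of collagen processing, matrix receptors and TGF-beta and PDGF signalling. The limma step was tested on simulated data. Alternatives covered the pseudocount, the filter, scaling, the spread model, the replicate block and each left-out library.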

Additional observations from a re-analysis of the deposited data

How the results depend on the processing

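The direction of both medians held under every alternative run. The median in Naa10-KO replicate 1 was 0.82 with a pseudocount of 0.1, 0.52 with a pseudocount of 5 and 0.83 over rows averaging at least 5 RPKM. In replicate 2 it was -0.16 with a pseudocount of 5, -0.17 over rows averaging at least 5 RPKM and -0.23 after centring on the library median. The 13 members high in replicate 1 numbered 9 to 14. The 5 low in replicate 2 were 9 with a pseudocount of 0.1, 2 with a pseudocount of 5, 3 after centring, and 3 to 5 with a WT library left out. Members below WT in both knockout libraries numbered 1 after centring and 1 over rows averaging at least 5 RPKM. With a library left out, they numbered 5 to 25, and those above WT 7 to 28. Leaving out a library gave 0 to 27 limma calls as higher and 0 to 19 as lower, with none without a WT library. The Naa10 row had an adjusted limma p of 0.0817 without rows at 0 and small RNA rows (log2 change -1.71), and its log2 change lay between -1.83 and -1.59 with a library left out, past the threshold only without a Naa10-KO library.

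Libraries with the same replicate number tended only weakly to deviate in opposite directions. The correlation was -0.215 over all tested rows and -0.133 over tested rows above 0 in every library. No label says that a number marks a shared origin. With the replicate block, limma called 0 members, as without it, and 44 rows in all against 91; with crossed numbers, a pairing chosen after seeing the data, it called 0 members and 133 rows. Of 18 single-library differences of at least 1, 7 were below 1 with a pseudocount of 5. Counting error could not be set per gene because RPKM hide the counts, so rows under 1 RPKM are the least certain.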
